A study of Mus musculus with 62 samples.

Results

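Transcripts of 6 genes that encode secreted peptides of the hypothalamus were followed across tissue punches of 3 brain regions, namely the suprachiasmatic nucleus (SCN), nucleus accumbens (NAc) and prefrontal cortex (PFC). The genes were Oxt, Gal, Trh, Cartpt, Nts and Adcyap1. They were taken by symbol from the 12483 genes held by the deposited counts, with earlier results of these data known. The SCN table of 12047 genes held all 6, and the NAc and PFC table of 11569 genes held 3 of them, Cartpt, Nts and Adcyap1. Oxt, Gal and Trh were therefore not analysed in the NAc and PFC.

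The study asked whether circadian rhythm disruption (CRD), made by repeated reversals of the light cycle, leaves lasting changes in behavior and brain transcripts. The mice were male and female C57BL/6J animals, exposed to CRD in adolescence or kept as controls. Brains were taken at ZT6, 6 h after lights on, about 4 weeks after the paradigm ended, and each library came from a punch of a single animal. The 62 libraries, 19 of the SCN, 26 of the NAc and 17 of the PFC, came from 26 mice. The labels give region and mouse number only, so libraries of CRD and control mice, and of both sexes, stand together in each region. The p-values below measure the spread between libraries, and all of these groups are part of that spread. Within a region each library is of a different mouse. The region comparisons treat libraries of the same mouse as independent unless a block is named.

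Neuropeptides are made as precursors, cut by convertases in the secretory pathway, stored in dense core vesicles and released to act on G protein-coupled receptors. The SCN is the principal circadian pacemaker, and its own neurons are known for Avp, Vip, Grp, Nms and Prok2. The peptides examined here are best known from nuclei around it. Oxytocin is made in the paraventricular (PVN) and supraoptic (SON) nuclei, thyrotropin-releasing hormone in the PVN among other sites, and CART peptide in arcuate neurons that express Pomc and in the lateral hypothalamus. Galanin and neurotensin are made by preoptic and lateral hypothalamic neurons, and PACAP, the product of Adcyap1, by glutamatergic neurons of the ventromedial nucleus. Cartpt and Nts are also expressed in the striatum and Adcyap1 in cortical glutamatergic neurons.

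Total counts per library lay between 16496666 and 35389742 (SCN), 28879724 and 60009482 (NAc), and 31216225 and 50333579 (PFC). All 9 listed SCN neuron genes were measured in the SCN table, and their summed level ranged from 89.2 to 464 CPM (counts scaled to library size) across the 19 SCN libraries. Striatal genes stood apart in SCN J1199 and SCN J1140, where 5 measured striatal genes summed to 556 and 262 CPM, against 70.0 CPM or less in every other SCN library. SCN J1165 held 1403 counts of Xist, whereas the NAc and PFC libraries of that mouse number held 23 and 18 counts, so that library went against the others of its mouse. Results that rest on these 3 libraries were repeated without them. Mouse numbers fell into a lower and an upper range with a gap between them, holding 7 and 12 SCN libraries, and relations across libraries were also computed within each range. Libraries were punches of mixed tissue, so fewer cells of a type and less RNA per cell cannot be told apart.

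The genes lie on 6 chromosomes of GRCm38, and no annotated gene overlaps any of them. Oxt is at chr2:130576173-130577054 on the plus strand, 3565 bp from Avp at chr2:130580620-130582554 on the minus strand, with no annotated gene between them. Gal is at chr19:3409915-3414544, Trh at chr6:92242061-92244650, Cartpt at chr13:99898489-99901091 and Nts at chr10:102481756-102490486, all on the minus strand. Adcyap1 is at chr17:93199017-93206537 on the plus strand. Oxytocin and vasopressin genes arose by duplication and encode near-identical neurophysins. Of the 463 different 75-base windows of the Oxt transcript, the length of a sequenced mate, 53 were also found in Avp and in no other gene, whereas the transcripts of the other 5 peptide genes shared no such window with any other gene. A mate lying wholly within the shared stretch cannot be assigned to Oxt or Avp on its own. The longest identical run, 127 bases inside both coding sequences, spans bases 156 to 282 of the Oxt transcript and 144 to 270 of the Avp transcript, and it is shown because Avp was among the abundant peptide transcripts of these punches.
Oxt and Avp shared run: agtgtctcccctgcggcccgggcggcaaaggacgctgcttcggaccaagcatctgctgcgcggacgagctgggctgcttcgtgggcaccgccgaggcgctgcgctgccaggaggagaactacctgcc

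The promoters of 4 genes are shown, for the pairs whose levels moved together or in opposite directions across the SCN libraries, as described below. Each is the 180 bases before the RefSeq start site on GRCm38.p6, read on the gene's own minus strand, with matches to the cAMP response element TGACGTCA or its half-site TGACG, on either strand, in capitals. The gene positions above come from GENCODE, whose starts differ for some genes. The Cartpt stretch lies inside its GENCODE span, and the Nts stretch overlaps the end of its span. Distances from the start below refer to RefSeq. Such elements are bound by CREB, a factor activated by cAMP and calcium signals in neurons.
Gal, chr19:3414545-3414724: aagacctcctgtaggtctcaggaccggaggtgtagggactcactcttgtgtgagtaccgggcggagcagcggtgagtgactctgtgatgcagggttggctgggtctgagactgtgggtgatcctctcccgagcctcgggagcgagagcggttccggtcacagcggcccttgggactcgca
Nts, chr10:102490419-102490598: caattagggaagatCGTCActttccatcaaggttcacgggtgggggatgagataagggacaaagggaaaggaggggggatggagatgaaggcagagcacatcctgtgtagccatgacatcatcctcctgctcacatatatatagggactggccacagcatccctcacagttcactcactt
Trh, chr6:92244651-92244830: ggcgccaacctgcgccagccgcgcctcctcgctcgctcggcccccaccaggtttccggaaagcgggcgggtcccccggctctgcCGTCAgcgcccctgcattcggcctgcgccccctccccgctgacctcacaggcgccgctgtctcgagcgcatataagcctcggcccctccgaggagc
Cartpt, chr13:99900684-99900863: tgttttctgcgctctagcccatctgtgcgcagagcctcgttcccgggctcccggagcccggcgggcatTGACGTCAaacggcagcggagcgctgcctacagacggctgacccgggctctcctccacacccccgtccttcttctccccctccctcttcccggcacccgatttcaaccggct

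In the full windows, from 250 bases before to 50 bases after the start, Cartpt held the whole element, which begins 112 bases before its start and contains both half-sites. The half-site alone occurred in Nts and Trh on the minus strand, in Gal 20 bases after the start, and in Adcyap1, and the Oxt window held neither. Of 32851 promoter windows of the same length, 1.79% held the whole element and 20.8% the half-site, so a half-site is a common match. The E-box CACGTG, present in 7.15% of windows, occurred in none of the 6 genes, and the AP-1 element TGACTCA, present in 5.2%, occurred in Nts alone. These matches are descriptions of letters in a window, and factor binding was not measured.

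All 6 peptide transcripts were detected in every SCN library, and 5 of them were among the most variable transcripts of the SCN table. CPM values were scaled by the trimmed mean of M values (TMM) within each table. Oxt, the oxytocin precursor, had a lowest level of 3.49 CPM in SCN J1140, a median of 17.2 CPM and a highest level of 62.6 CPM in SCN J1157. The next highest level was 36.9 CPM in SCN J1159, and counts ran from 78 to 3395. Gal, the galanin precursor, ranged from 2.52 CPM in SCN J1141 through a median of 9.87 CPM to 75.3 CPM in SCN J1011, where it was more than 2-fold above the next library at 35.4 CPM. Trh, the precursor of thyrotropin-releasing hormone, was the most abundant of the 6 in the median library at 86.6 CPM and reached 152 CPM in SCN J1198. For Trh, SCN J1177 at 7.01 CPM and SCN J1018 at 13.2 CPM lay far below the others, of which the lowest was SCN J1158 at 48.6 CPM.

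Cartpt, the CART peptide precursor, showed the reverse picture in the same libraries. Its lowest level was 1.60 CPM in SCN J1020, its median 8.68 CPM, and its highest levels were 79.2 CPM in SCN J1018 and 62.4 CPM in SCN J1177. Nts, the neurotensin precursor, lay close together in its lower libraries, with a lowest level of 3.41 CPM in SCN J1021 and a median of 5.78 CPM. It reached 77.5 CPM in SCN J1011 and 67.2 CPM in SCN J1017, which were also the highest libraries of Gal. Adcyap1 varied least, from 6.81 CPM in SCN J965 through a median of 16.7 CPM to 37.9 CPM in SCN J1018. Levels of the 7 lower-range and 12 upper-range libraries overlapped for every one of the 6 genes.

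**Figure D1:**
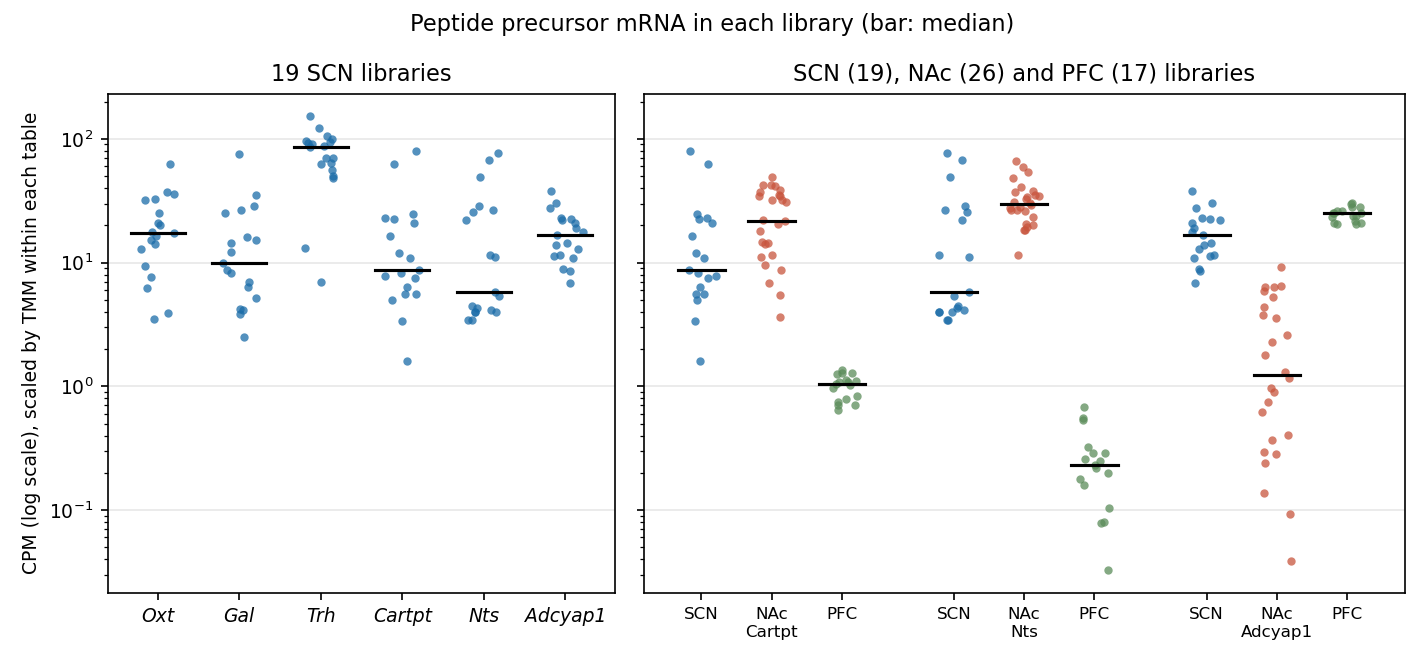
Each point is a library, the vertical axis gives CPM on a log scale, and the black bar is the median. The left panel holds the 6 peptide genes in 19 SCN libraries, and the right panel the 3 genes also measured in 26 NAc and 17 PFC libraries, where Nts lay between 0.0327 and 0.680 CPM in the PFC and Adcyap1 between 0.0386 and 9.13 CPM in the NAc.

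The standard deviation (SD) of log2 CPM (prior count 2) across the 19 SCN libraries was 1.57 for Nts, which ranked 7 among 12047 genes. It was 1.37 for Cartpt (rank 21), 1.27 for Gal (rank 32), 1.10 for Oxt (rank 90), 1.07 for Trh (rank 106) and 0.66 for Adcyap1 (rank 644). The median SD over all genes of the table was 0.29. Avp, an SCN peptide and the neighbor of Oxt, had an SD of 0.83 (rank 304) and ranged from 22.6 to 187 CPM. The spread of Oxt differed between the ranges of mouse numbers, with an SD of 0.58 among the lower and 1.31 among the upper mouse numbers. The share of counts on mitochondrial ribosomal RNA, a measure of library composition, correlated with the level of Oxt (r = -0.66, permutation p = 0.00199, adjusted over 12 relations p = 0.0239, n = 19). Spearman's rho was -0.62 (adjusted permutation p = 0.0697). With the 2 libraries at the extremes of that share, those farthest from its median, left out, the value was -0.49 and missed adjustment (adjusted permutation p = 0.561, n = 17). It was -0.64 within the lower range (exact permutation p = 0.117, n = 7) and -0.70 within the upper (permutation p = 0.00973, adjusted p = 0.117, n = 12), and neither passed. The part of this share in the spread of Oxt was not tested. No relation with total counts or, for the other 5 genes, with this share passed adjustment.

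**Figure D2:**
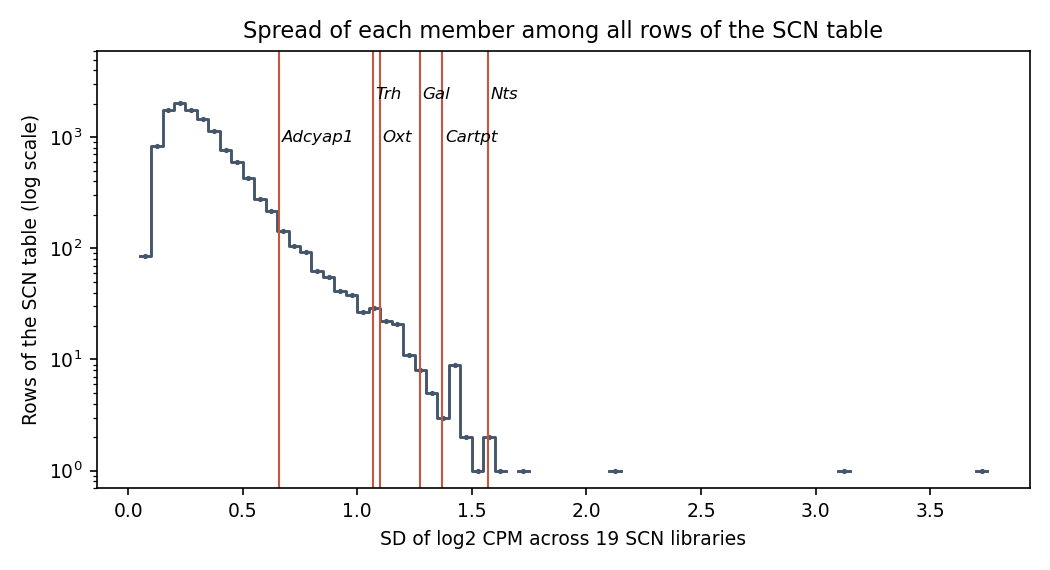
The stepped line counts genes of the SCN table (log scale) by the SD of their log2 CPM across 19 SCN libraries, in bins of 0.05. Vertical lines mark the 6 peptide genes, of which Adcyap1 at 0.66 lies nearest the bulk of genes around the median of 0.29 and Nts at 1.57 lies farthest from it.

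Levels were compared between genes only per kilobase of exon. In the SCN the medians were 62.6 CPM per kb for Trh, 32.1 for Oxt, 12.5 for Gal, 6.79 for Cartpt, 4.63 for Nts and 4.41 for Adcyap1. Trh exceeded Oxt in 12 of 19 libraries, Oxt exceeded Gal in 15 and Gal exceeded Cartpt in 14. Cartpt exceeded Nts in 8 libraries only, and Nts exceeded Adcyap1 in 11. The SD of the log2 difference between neighbors was larger than its mean for each of these 5 pairs, for example 0.65 ± 1.73 (SD, n = 19) for Trh over Oxt. The order of neighbors thus varied between libraries, and whether their means differed was not tested. Trh was the highest of the 6 in 11 libraries, Oxt in 6, and Gal and Cartpt in 1 each.

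Among the 15 pairs of peptide genes, Gal and Nts rose and fell together across SCN punches. Their log2 CPM gave r = 0.89 (permutation p = 2e-05, adjusted p = 0.0003, n = 19) and rho = 0.83 (adjusted permutation p = 0.0009). The value was 0.95 in the 7 lower-range libraries (exact permutation p = 0.00218), 0.84 in the 12 upper-range libraries, and 0.88 when the 2 libraries farthest from the median of Gal were left out. Leaving out each SCN library in turn gave values from 0.86 to 0.91, and the pair passed in all 19 cases. Galanin is a largely inhibitory neuropeptide and neurotensin a largely excitatory one, and both transcripts were high in SCN J1011, SCN J1017 and SCN J1198 and low in SCN J1141, SCN J1158, SCN J1162 and SCN J1165.

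Trh and Cartpt moved in opposite directions. The pair gave r = -0.72 (permutation p = 0.00076, adjusted p = 0.0057, n = 19), with a rho of -0.56 (adjusted permutation p = 0.113). Values within the ranges were -0.74 (exact permutation p = 0.0669, n = 7) and -0.74 (permutation p = 0.00995, n = 12), and neither passed adjustment. Without SCN J1177 and SCN J1018, the 2 libraries with the lowest Trh, the value was -0.35 (adjusted permutation p = 0.368), and the pair no longer passed without SCN J1018 alone (adjusted permutation p = 0.0627). The relation thus rests on these libraries. The other 13 pairs did not pass, with values between -0.30 and 0.32.

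Marker genes of neighboring nuclei gave a description of what the punches held. Of the lists for nuclei around the SCN, the arcuate and ventromedial lists each had 1 gene in the SCN table, the preoptic and anterior hypothalamic list 2 of 5, and the lateral hypothalamic list 0 of 2. These genes, with Slc17a6 and Avp, were tested singly in 36 relations adjusted together, a family chosen after values were seen. Pomc, which encodes the melanocortin precursor of arcuate neurons, was the only measured arcuate gene of 6 listed. It ranged from 1.23 to 178 CPM, with 178 CPM in SCN J1018 and 149 CPM in SCN J1177, the 2 libraries with the highest Cartpt and the lowest Trh, and with at most 42.2 CPM in the others. Pomc correlated with Trh (r = -0.84, permutation p = 6e-05, adjusted p = 0.00072, n = 19, rho = -0.62) and with Cartpt (r = 0.69, permutation p = 0.00125, adjusted p = 0.00852, n = 19, rho = 0.42). Of the 36 relations, 0 passed within the lower range of mouse numbers and 2 within the upper. For Trh the value was -0.95 within the lower range, -0.78 within the upper and -0.56 without the 2 farthest libraries (adjusted permutation p = 0.0709). For Cartpt it was 0.70 within the lower range, 0.71 within the upper and 0.34 without the 2 farthest libraries, and it no longer passed without SCN J1018 or SCN J1177 alone.

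Adcyap1 followed Slc17a6, the vesicular glutamate transporter of hypothalamic glutamatergic neurons. Slc17a6 ranged from 25.5 to 119 CPM, with its lowest level in SCN J965, which also held the lowest Adcyap1. The relation gave r = 0.93 (permutation p = 1e-05, the smallest that 100000 resamples can give, adjusted p = 0.00036, n = 19) and rho = 0.90. It was 0.95 in the lower range, where it missed adjustment (exact permutation p = 0.00218, adjusted p = 0.0786, n = 7), 0.94 in the upper range and 0.89 without the 2 farthest libraries, and it passed whichever SCN library was left out. Fezf1, a transcription factor of the ventromedial nucleus, also correlated with Adcyap1 (r = 0.69, permutation p = 0.00142, adjusted p = 0.00852, rho = 0.70). The value was 0.83 for lower mouse numbers, where it did not pass, 0.61 for upper ones and 0.53 without the 2 farthest libraries (adjusted permutation p = 0.0932).

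Gal and Nts each followed Esr1, the estrogen receptor alpha gene, which marks preoptic and other hypothalamic neurons. For Gal the value was 0.77 (permutation adjusted p = 0.00099, n = 19) and for Nts 0.79 (permutation adjusted p = 0.00036, n = 19), and Esr1 was highest, at 42.4 CPM, in SCN J1011. Without the 2 farthest libraries the values were 0.57 for Gal (adjusted permutation p = 0.0709) and 0.65 for Nts (adjusted permutation p = 0.0347). Within the lower and upper ranges they were 0.85 and 0.70 for Gal and 0.88 and 0.75 for Nts, none past adjustment. Calcr, the calcitonin receptor gene and the other measured gene of the preoptic list, gave lower values that did not pass, with Gal (r = 0.29, permutation adjusted p = 0.418, n = 19) and with Nts (r = 0.16, permutation adjusted p = 0.749, n = 19). It lay between 15.9 CPM in SCN J1017, where Gal and Nts were high, and 29.6 CPM in SCN J1020, and without the 2 farthest libraries its value with Gal was 0.67 (adjusted permutation p = 0.0347). Oxt and Avp, whose genes are neighbors, gave r = 0.02 and rho = 0.14 (adjusted permutation p = 0.941 and 0.696, n = 19). In all, 6 of the 36 relations passed, and none of Oxt did.

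Scores of marker lists, each the mean z-score of its genes, gave 30 further relations, of which 2 passed. The oligodendrocyte score of 9 myelin genes was lower where Gal and Nts were higher, with r = -0.72 for Gal and r = -0.74 for Nts (permutation adjusted p = 0.0072 for both, n = 19). The rank correlations were -0.73 and -0.72. Within the ranges the values for Gal were -0.74 and -0.71 and those for Nts were -0.87 and -0.61, none past adjustment, and without the 2 farthest libraries both had an adjusted permutation p of 0.0504. The summed myelin level ranged from 457 CPM in SCN J1017 to 3364 CPM in SCN J1165, and no myelin gene was at 0. Scores for SCN neurons, PVN and SON neurons, ependymal cells and striatal neurons passed with none of the 6 genes. Without SCN J1199 and SCN J1140, 4 relations passed, and the 2 added ones were of Adcyap1 with the scores for SCN neurons (r = -0.64, permutation adjusted p = 0.0352, n = 17) and ependymal cells (r = -0.68, permutation adjusted p = 0.0313, n = 17). The 4 measured PVN and SON genes summed to between 34.3 and 84.2 CPM, and neither Oxt (leave-one-out range of r, -0.17 to 0.03) nor Trh (0.36 to 0.51) passed with them, although the rank correlation of Trh did (rho = 0.63, permutation adjusted p = 0.0474, n = 19).

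**Figure D3:**
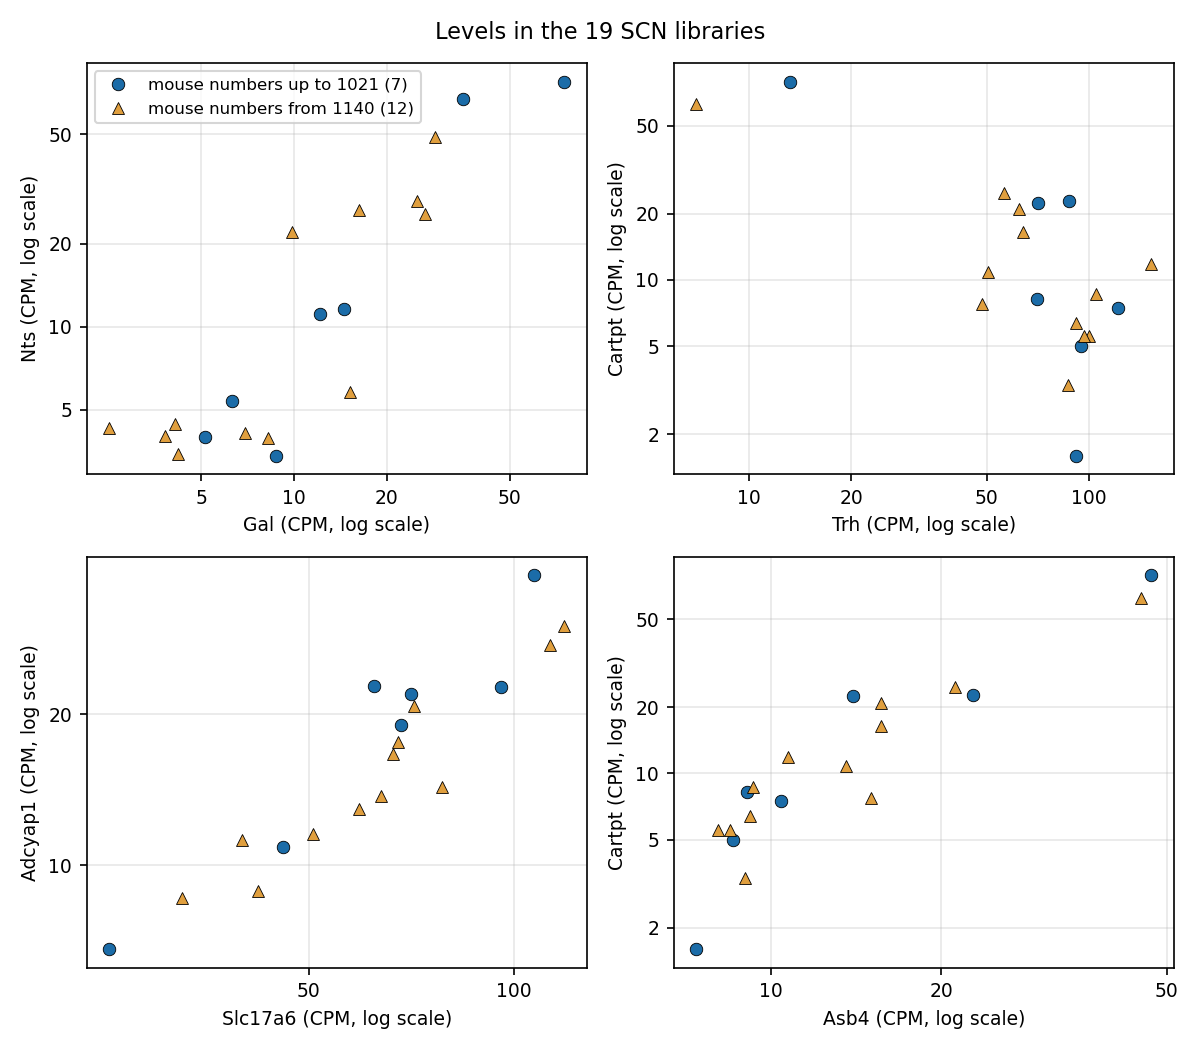
Each point is an SCN library, circles for the 7 lower and triangles for the 12 upper mouse numbers, and all axes give CPM on log scales. Gal and Nts rise together (r = 0.89), Trh and Cartpt oppose each other mainly through 2 libraries at the upper left (r = -0.72), Adcyap1 rises with Slc17a6 (r = 0.93) and Cartpt with Asb4 (r = 0.92).

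The genes whose log2 CPM was most like each peptide gene across the 19 SCN libraries are given as a description, without tests. For Gal, after Nts itself, these were Hpcal1 (r = 0.87), Irs4 (0.87), the prolactin receptor gene Prlr (0.85) and the orphan bombesin receptor gene Brs3 (0.84). For Nts they were Gal, Brs3 (0.88), Hpcal1 (0.85), Fstl5 (0.82) and Brinp2 (0.82), so 2 genes, Hpcal1 and Brs3, were on both lists. For Cartpt they were Asb4 (0.92), Fmo1 (0.88), Cmpk2 (0.87), Amigo2 (0.84) and Th (0.83), the rate-limiting enzyme of dopamine synthesis. Asb4 reached 47.0 CPM in SCN J1018 and 45.1 CPM in SCN J1177 and at most 22.8 CPM elsewhere. For Trh they included Zmat4 (0.83), Cbln2 (0.82), the substance P receptor gene Tacr1 (0.81) and Cntnap4 (0.81), for which rho was lower, between 0.57 and 0.72. For Adcyap1 they were Slc17a6 (0.93), the glutamate transporter gene Slc1a6 (0.84), Plcxd2 (0.82), Cbln1 (0.82) and Cd83 (0.81). For Oxt they were Xpc (0.88), Vwa3a (0.74), Exosc10 (0.73), Uaca (0.72) and Prkrip1 (0.72), none of which encodes a neuropeptide.

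Cartpt, Nts and Adcyap1 were compared between regions with edgeR over the 11133 genes found in both tables for the SCN and within the NAc and PFC table for those regions. A gene was called when its adjusted p was under 0.05 and it differed by 1.2-fold or more. The SCN comes from another deposited table, so region and table cannot be told apart in its comparisons. Against the NAc, all 3 genes were called, and 64.1% of all genes tested were called. In the NAc, Nts ranged from 11.5 through a median of 29.7 to 66.5 CPM and Cartpt from 3.65 through 21.8 to 49.5 CPM. Adcyap1 in the NAc ranged from 0.0386 through 1.24 to 9.13 CPM, from 2 to 618 counts. The ranges of SCN and NAc overlapped for each of the 3 genes, whereas 13.2% of all genes did not overlap. Nts was lower in the SCN by a fitted log2 difference of -0.99 (SE 0.30, edgeR adjusted p = 0.00213) and Cartpt by -0.71 (SE 0.29, edgeR adjusted p = 0.0255), and Adcyap1 was higher by 2.55 (SE 0.32, edgeR adjusted p = 1.35e-10). The fit follows means, which the few high SCN libraries raise, and the median of Nts on the shared rows was 5.15 CPM for SCN and 31.3 CPM for NAc libraries. With the mouse number as a block, in the 19 mice with both regions, the difference of Nts was -1.69. Neither Nts (adjusted p = 0.196) nor Cartpt (adjusted p = 0.403) was called in the lower range alone, and Cartpt was also lost in the 19 mice fitted without the block (adjusted p = 0.0939).

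Against the PFC, Nts and Cartpt were called and Adcyap1 was not, and 64.7% of all genes tested were called. Cartpt in the PFC ranged from 0.640 through a median of 1.04 to 1.35 CPM and Nts from 0.0327 through 0.230 to 0.680 CPM. Nts counts there were 1 to 33 per library, and 16 of 17 libraries held at least 3, so its PFC level was close to the limit of detection at this depth. Adcyap1 in the PFC stayed between 20.4 and 30.2 CPM with a median of 25.2 CPM, an SD of log2 CPM of 0.18 that ranked 5890 of 11569. Nts was higher in the SCN than in the PFC by 5.88 on the log2 scale (SE 0.45, edgeR adjusted p = 1.16e-18) and Cartpt by 3.89 (SE 0.39, edgeR adjusted p = 4.71e-14). Scaled together, the SCN and PFC libraries did not overlap for Nts and overlapped for Cartpt and Adcyap1, whereas 20.7% of all genes did not overlap. The authors kept genes by a minimum CPM, and Nts, at most 0.680 CPM in the PFC, passed there through its NAc level. Its call and lack of overlap against the PFC were therefore partly set by that filter. Adcyap1 differed by -0.71 (SE 0.34, edgeR adjusted p = 0.0525). With the mouse number as a block, in the 12 mice with both regions, Nts differed by 5.06, and the difference of Adcyap1 was -0.85 and it was called (adjusted p = 0.000685), as it was in the same mice without the block (adjusted p = 0.00511) and without SCN J1165 (adjusted p = 0.0403).

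Between the NAc and PFC, all 3 genes were called, and 45.4% of all genes tested were called. The ranges of the 2 regions overlapped for none of the 3, and 9.5% of all genes had ranges that did not overlap. For Nts, which passed the filter on CPM through its NAc level, the call and the lack of overlap were partly set by that filter. Cartpt in the PFC and Adcyap1 in the NAc, with medians of 1.04 and 1.24 CPM, lay close to the filter's 1 CPM. Whether it had a part in their calls, here or against the SCN, was not tested. Nts was higher in the NAc by 6.87 on the log2 scale (SE 0.25, edgeR adjusted p = 1.2e-27), Cartpt was higher by 4.60 (SE 0.29, edgeR adjusted p = 1.11e-18), and Adcyap1 was lower by -3.26 (SE 0.36, edgeR adjusted p = 9.83e-11). With the mouse number as a block in 17 mice, Adcyap1 differed by -4.66. Per kilobase, the order in the PFC was Adcyap1, Cartpt and Nts in each of the 17 libraries. In the NAc, Nts exceeded Cartpt in 20 of 26 libraries and Cartpt exceeded Adcyap1 in all 26.

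Adcyap1 in the NAc had an SD of log2 CPM of 1.96, rank 4 of 11569, and its level moved with markers of cortex and striatum. The 5 cortical glutamatergic genes summed to between 8.22 and 429 CPM across the 26 NAc libraries, against 712 to 845 CPM in the PFC, and the 7 striatal genes to between 970 and 2197 CPM. In a family of 12 relations chosen after values were seen, 8 passed. Adcyap1 correlated with the cortical score (r = 0.70, permutation p = 7e-05, adjusted p = 0.00028, n = 26, rho = 0.80) and with the striatal score (r = -0.79, permutation p = 1e-05, adjusted p = 0.00012, rho = -0.825). For the cortical score the values were 0.81 and 0.82 within the lower and upper ranges and 0.80 without the 2 farthest libraries. For the striatal score they were -0.66 and -0.86 within the ranges and -0.78 without the 2 farthest libraries. NAc J1199, with the highest Adcyap1 at 9.13 CPM, also held the most cortical RNA by these genes, and the part of that tissue in the level of Adcyap1 was not tested. The relation of Adcyap1 with the oligodendrocyte score (r = -0.49, permutation adjusted p = 0.0183, n = 26) passed neither within the ranges nor without the 2 farthest libraries.

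Cartpt in the NAc was related to the same markers, whereas its level in the PFC lay between 0.640 and 1.35 CPM. NAc J1199 held both the lowest striatal sum, at 970 CPM, and the highest cortical sum, at 429 CPM. The part of cortical tissue in the level of Cartpt was not tested. It correlated with the striatal score at -0.71 (permutation adjusted p = 0.00028, n = 26) and with the cortical score at 0.62 (permutation adjusted p = 0.0017, n = 26). Its relation with Nts gave r = 0.63 (permutation adjusted p = 0.0017, n = 26, rho = 0.55), with 0.82 within the lower range and 0.31 within the upper. Its relation with Adcyap1 gave r = 0.54 (permutation adjusted p = 0.00892, n = 26, rho = 0.60), with 0.46 within the lower range and 0.71 within the upper. Nts correlated with the striatal score at -0.45 (permutation adjusted p = 0.032, n = 26) and with neither the cortical score (0.26, permutation adjusted p = 0.21) nor Adcyap1 (0.38, permutation adjusted p = 0.078). The share of counts on mitochondrial ribosomal RNA ran from 39.0% to 69.3% across the NAc libraries. Its relation with these genes and scores was not tested. The genes most like Cartpt across the NAc libraries were Lypd1 (r = 0.93), Trpc7 (0.92) and Pcdh8 (0.91), and those most like Adcyap1 were Lhfp (0.91), C1ql3 (0.89) and Syt17 (0.89).

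**Figure D4:**
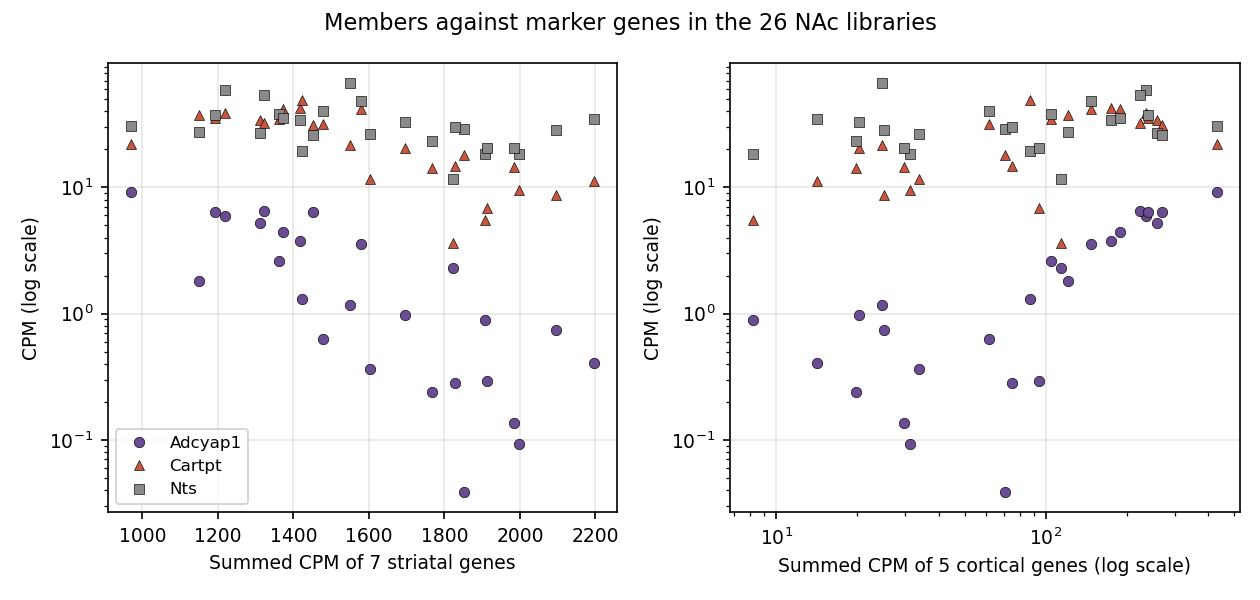
Each symbol is a gene in 1 of the 26 NAc libraries, with CPM on a log scale against the summed CPM of 7 striatal genes (left, linear axis) or 5 cortical genes (right, log axis). Adcyap1, between 0.0386 and 9.13 CPM, tends to fall as striatal genes, between 970 and 2197 CPM, rise. It rises with cortical genes, and Nts stays between 11.5 and 66.5 CPM.

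Receptors of these peptides were measured in part. Of 12 listed receptor genes, 6 were in the SCN table and 5 in the NAc and PFC table, and Oxtr, Galr2, Galr3, Trhr2 and Ntsr1 were in neither. Galr1, an inhibitory galanin receptor, had a median of 7.79 CPM in the SCN and lay between 4.06 and 13.7 CPM. Vipr2, which binds both VIP and PACAP, had a median of 14.5 CPM and lay between 1.5 and 31.2 CPM, lowest in SCN J1199. Of the 4 receptor genes tested against the NAc, 2 were higher in the SCN and 2 lower, with 33.1% of all genes called higher and 31% called lower. Adcyap1r1, the PACAP-preferring receptor, was higher by 1.11 (SE 0.05, edgeR adjusted p = 1.83e-29) and Ntsr2, a neurotensin receptor, by 0.96 (SE 0.08, edgeR adjusted p = 3.46e-17). Sort1, the sorting receptor that binds neurotensin, was lower by -1.21 (SE 0.08, edgeR adjusted p = 1.21e-21) and Trhr, the receptor of thyrotropin-releasing hormone, by -0.48 (SE 0.16, edgeR adjusted p = 0.0064). Against the PFC, 3 of 4 were higher in the SCN, with Adcyap1r1 at 1.31, Ntsr2 at 1.22 and Trhr at 0.59, and Sort1 was lower at -1.64, beside 33.7% of all genes called higher and 31% lower. Between the NAc and PFC, 5 receptor genes were tested. Trhr at 1.07 and Ntsr2 at 0.27 were higher in the NAc and Sort1 at -0.43 was lower, beside 23.7% of all genes called higher and 21.7% lower. Adcyap1r1 at 0.20 and Vipr1 at -0.26 differed by less than the fold threshold and were not called. Ntsr2 was not called with the mouse number as a block (adjusted p = 0.3). The Adcyap1r1 levels of all SCN libraries lay above those of all NAc and all PFC libraries. Of all genes, 13.2% did not overlap between SCN and NAc and 20.7% between SCN and PFC. The median level of Adcyap1 itself was highest in the PFC, although its difference between SCN and PFC was not called in the main fit.

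Genes that process, store and release peptides were mostly higher in the SCN than in the NAc. Of 14 such genes, 10 were higher, 1 was lower and 3 were not called, beside 33.1% of all genes called higher and 31% lower, and the median log2 difference was 0.51 against 0.02 over all genes tested. Scg2 is a granin of dense core vesicles. On the shared rows scaled together, its median was 563 CPM in the SCN, compared with 210.5 CPM (NAc) and 77.3 CPM (PFC). Its differences were 1.56 and 3.02 (edgeR adjusted p = 6.45e-22 and 4.74e-32). Pcsk1, a proprotein convertase, was higher than in the NAc by 1.59 (edgeR adjusted p = 6.37e-19), and Cadps2, which primes dense core vesicles for release, by 2.03 (edgeR adjusted p = 2.97e-12). Pcsk2, the other main neuronal convertase, was lower by -0.52 (edgeR adjusted p = 7.62e-09). Against the PFC, 6 were higher, among them Qpct at 1.61, the enzyme that forms the amino-terminal pyroglutamate of thyrotropin-releasing hormone and neurotensin, and 5 were lower, among them Pcsk2 at -1.29. Of all genes, 33.7% were called higher and 31% lower there, so these shares of the 14 lay near the background. Between the NAc and PFC, 2 of the 14 were higher in the NAc and 9 were lower, beside 23.7% and 21.7% of all genes.

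Of the peptidases that cleave these peptides, Trhde, which degrades thyrotropin-releasing hormone, was higher in the SCN than in the NAc by 1.28 (edgeR adjusted p = 8.95e-17) and than in the PFC by 0.36 (edgeR adjusted p = 0.00616). Nln, neurolysin, which cleaves neurotensin, was lower than in the NAc by -0.53 and than in the PFC by -0.85 (edgeR adjusted p = 9.26e-18 and 1.03e-25). Thop1, also among the listed peptidases, was not called against the NAc (0.096, edgeR adjusted p = 0.257). It was lower than in the PFC by -0.34 (edgeR adjusted p = 0.000404). Lnpep, the oxytocinase, differed by less than the fold threshold in each comparison, with -0.23 for the SCN against the PFC and -0.23 for the NAc against the PFC. Mme, neprilysin, was tested between the NAc and PFC only and was higher in the NAc by 3.47 (edgeR adjusted p = 2.52e-27).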

How the data were processed

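The authors prepared SmartSeq HT libraries from punches, sequenced 75 bp paired ends, aligned them with HISAT2 to GRCm38 and counted reads per gene with HTSeq in union mode. They deposited counts without normalization in 2 tables, filtered separately, 1 for the SCN and 1 for the NAc and PFC. Their filter kept genes above 1 CPM in a set share of the subjects of each group. Quality was assessed with FastQC 0.11.7, per the labels. Groups are the regions given by the labels, and neither CRD nor sex is given per library. The 6 peptide genes, the gene lists and the tests were chosen with earlier results of these data known, and the single-gene, technical and NAc relations after values were seen.

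Gene positions, exon lengths and overlaps came from GENCODE M21, and promoters from RefSeq (GRCm38.p6), where all 6 genes matched. Regions were compared with edgeR 4.0.16 in R 4.3.3 (quasi-likelihood test, TMM, filterByExpr, which removed 0 genes), without a block, with calls at p under 0.05 after Benjamini-Hochberg adjustment and 1.2-fold or more, the study's thresholds. DESeq2 1.42.0 was an alternative. Libraries of a mouse number are labeled as the same animal, so a fit with the mouse number as a replicate block is given beside results it changes. The block fits with the SCN include SCN J1165, which went against the other libraries of its number by Xist. These fits were not repeated without it. The correlation of a mouse's deviations from the region means had a median of 0.00141 for SCN and NAc, 0.0988 for SCN and PFC and -0.00345 for NAc and PFC. Relations across libraries used log2 CPM with a prior count of 2, two-sided permutation tests with 100000 resamples (exact for 7 libraries) and adjustment within each family. Scores used genes with a mean of at least 1 CPM and at least 2 genes, so the arcuate list gave none, and no score was planned for the preoptic list, whose genes were taken singly. Named genes were the 6 peptide genes, the 5 most like each in the SCN (1 of them, for Trh, is not reported here), Avp and the listed genes. No pair of libraries held the same counts. In counts simulated for the NAc and PFC with 200 genes changed, edgeR recovered 195 and called 6 unchanged genes.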

Additional observations from a re-analysis of the deposited data

How the results depend on the processing

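Another normalization, another tool, another prior count, scaling without mitochondrial and rRNA genes, and omitting SCN J1165 changed no count of calls or of relations by more than 1.5 times, and the stricter and absent filters on low counts removed no gene. No difference or relation past its threshold changed direction under the alternatives run, whereas the relation of Avp and Oxt, near 0, ran from -0.07 to 0.13 when each library was left out. With the replicate block, the peptide genes called were 3 of 3 in each region comparison, and the differences were -1.69 for Nts, -1.08 for Cartpt and 2.95 for Adcyap1 (SCN against NAc), 5.06, 3.32 and -0.85 (SCN against PFC), and 6.87, 4.09 and -4.66 (NAc against PFC), and beside Adcyap1 of the SCN and PFC it changed no call of the 3 genes. In the lower range of mouse numbers, 1 peptide gene was called between SCN and NAc. Pairs passed fell from 2 to 1 with rank correlation, within the lower and the upper range, and without the 2 farthest libraries. Score relations fell from 2 to 0 within either range and without the 2 farthest libraries, and rose to 4 without SCN J1199 and SCN J1140. Ranges hold fewer libraries, and other causes were not tested. Of alternatives chosen after seeing the data, leaving out each SCN library in turn left 1 to 2 pairs, 2 to 3 score relations and 5 to 8 single-gene relations. Single-gene relations fell from 6 to 0 (lower range) and 2 (upper range), the technical relation of Oxt from 1 to 0 with rank correlation, within either range and without the 2 farthest libraries, and NAc relations from 8 to 5 in the lower range. The SD of log2 CPM moved to 0.58 (lower range) and 1.31 (upper range) for Oxt, and in the lower range to 1.79 for Cartpt, 1.84 for Nts and 0.81 for Adcyap1. Counting limits the low levels, namely Nts in the PFC (from 1 count) and Adcyap1 in the NAc (from 2 counts).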

Other observations

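The genes whose log2 CPM ran most opposite to the peptide genes across the 19 SCN libraries were listed after the values were seen, as a description without tests. Opposite to Trh were Irf9 (r = -0.89), Asb4 (-0.86), Cd44 (-0.85), Pomc (-0.84) and the ferritin light chain gene Ftl1 (-0.80), and Asb4 was also the gene most like Cartpt. Opposite to Cartpt were the zinc finger factor genes Zic1 (-0.84) and Zic4 (-0.82), the kinase subunit gene Pik3cb (-0.83), Pcdh19 (-0.83) and Ahcyl2 (-0.82). Opposite to Gal were Sept4 (-0.83), Gstt3 (-0.82), Sfrp5 (-0.81), the oligodendrocyte factor gene Olig1 (-0.81) and Plcl1 (-0.80), and opposite to Nts were Me1 (-0.85), Plcl1 (-0.84) and the lipid synthesis gene Scd1 (-0.83). Opposite to Oxt was the mitochondrial gene mt-Atp8 (-0.84).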
